A study of Mus musculus with 4 samples.

Results

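The genes that encode the proteins of the cytosolic ribosome were followed in mouse hearts under pressure overload. They were taken by symbol (Rpl or Rps followed by a number, with Rpsa and the stalk proteins Rplp0, Rplp1 and Rplp2), without pseudogenes and without the kinases and binding proteins whose names begin in the same way. Of 85 such genes, 83 had a probe on the array by this match, among 21658 genes with a symbol, and Rps23 and Rpl32l had none. The 83 genes comprised 52 of the large and 31 of the small subunit, and 7 of them are paralogs, each encoding a protein closely related to that of another member. Total RNA came from hearts of male mice, C57BL/6J by the paper's methods, after a sham operation or after transverse aortic constriction (TAC), a surgical narrowing of the aorta that loads the left ventricle. There were 4 groups of 1 array each, sham and TAC at 2 weeks (labelled as 10 weeks of age) and sham and TAC at 8 weeks (labelled as 16 weeks of age). No group carried a genetic change. The paper's methods give an older age at surgery than these labels allow. Each array held RNA mixed from several mice, so the spread between mice was not measured, no difference was tested, and each change is the ratio of a pair of pools. All 4 arrays lay on the same slide and were scanned together.

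Every value is the probe's signal intensity divided by the 75th percentile of its array, called the relative signal, and changes are TAC over sham on the log2 scale. This percentile lay between 206 and 248 intensity units, between 54.7% and 58.5% of the 55681 probes were well above background, and no spot was saturated. Myh7 and Nppa, genes of the hypertrophic response, were 6.55-fold and 3.58-fold higher in the TAC pool at 2 weeks, and 12.9-fold and 6.28-fold higher at 8 weeks, in the direction of the labels. Of the 83 ribosomal protein genes, 81 were well above background on all 4 arrays. Signals of different probes are not comparable as levels, so genes are compared below by their changes alone.

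A ribosome joins a small subunit, which reads the mRNA, and a large subunit, which forms the peptide bond. Each ribosome carries 1 copy of nearly every ribosomal protein, and the genes are expressed at high levels in all cells. Many of their mRNAs start with a run of pyrimidines, through which the growth kinase mTOR sets how much of them is translated. Cardiac hypertrophy is known for a rise in protein synthesis and ribosome number. Heart and skeletal muscle also express Rpl3l, a paralog that takes the place of Rpl3 in the large subunit.

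The ribosomal protein genes hardly moved as a group at either time, and Rpl3 and Rpl3l stood apart from the rest. The median log2 change of the 83 genes was -0.015 at 2 weeks, and that of the 82 genes above background on either array of the pair was -0.0069 at 8 weeks. At 8 weeks the median without scaling between arrays was 0.16 for the members and 0.16 for all genes. With scaling to the median of the array these were 0.080 and 0.078. In the main setting, 76 of 83 genes (91.6%) lay within 0.2 of 0 at 2 weeks and 76 of 82 (92.7%) at 8 weeks. At 2 weeks 1 member was over 1.3-fold higher (Rpl39l) and 1 over 1.3-fold lower (Rpl3l) after TAC, beside 13.1% and 7.15% of all genes tested (3.62% and 4.55% of genes of like signal, described below). At 8 weeks 2 members were over 1.3-fold higher (Rpl3 and Rpl10l) and 1 was lower (Rpl3l), beside 12.9% and 11.2% of all genes (5.69% and 3.93% of genes of like signal). Rpl10l and Rpl39l were close to background, where a change is poorly measured. The remaining 79 genes measured on all 4 arrays ranged from -0.27 to 0.21 at 2 weeks and from -0.23 to 0.26 at 8 weeks.

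**Figure D1:**
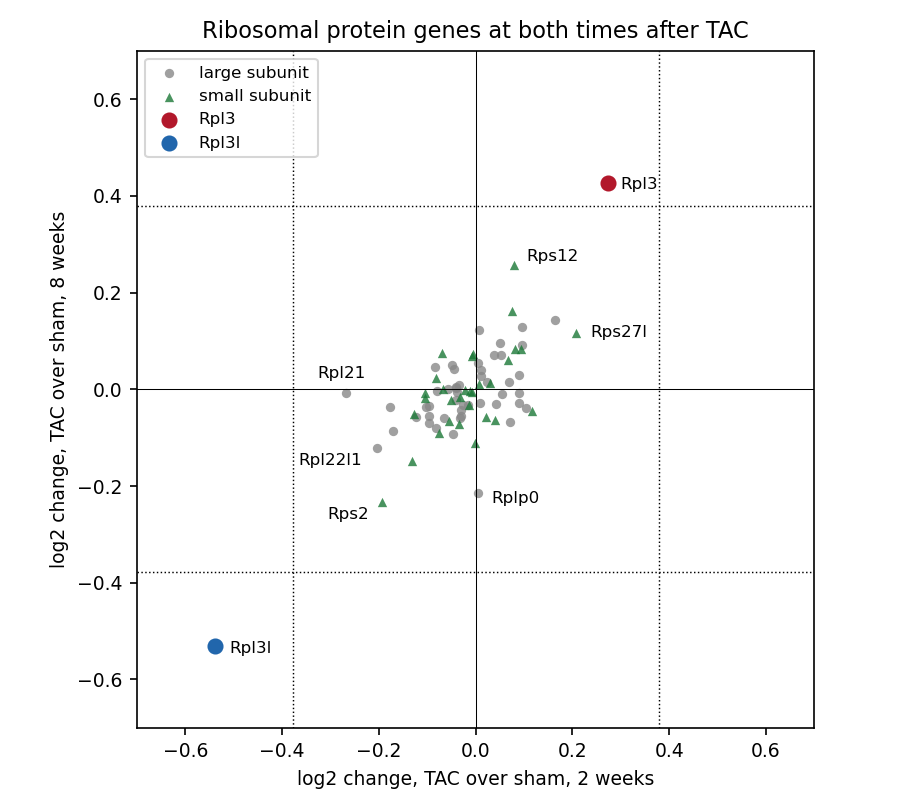
Log2 change of TAC over sham at 2 weeks (horizontal) and at 8 weeks (vertical) for the 81 ribosomal protein genes above background on all 4 arrays, with 1 point per gene and dotted lines at 1.3-fold. The cloud lies within about 0.27 of 0 on both axes, Rpl3l lies below the lower line on both, and Rpl3 lies above the upper line at 8 weeks.

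This spread was narrow beside that of other genes. The range from the lower to the upper quartile of the log2 changes was 0.12 for the members and 0.33 for all genes at 2 weeks, and 0.098 and 0.37 at 8 weeks. Because dim probes are noisier, 966 other genes with a mean relative signal of at least 38.8, the 5th percentile of the measured members, were set beside them. Only this floor was set, so their signals were not matched to those of the members above it. Their quartile range was 0.20 at 2 weeks and 0.26 at 8 weeks, and 71.6% and 66.4% of them lay within 0.2 of 0. The medians of these genes, -0.069 and -0.052, were lower than those of the members. For the error of a single value, 399 probes are printed at 10 spots each. Among the 37 of these probes that were brighter than 16 times the 75th percentile, the log2 change differed between spots of the same probe with an SD of 0.048, and among the 174 dimmest with an SD of 0.70. The 79 genes had an SD of 0.085 at 2 weeks and of 0.078 at 8 weeks. The error between spots leaves out hybridization and the mice.

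A sequence feature was more frequent at or near the annotated start of the members than of all genes, though most of them lacked it there. The search rests on annotated starts, so a gene whose start is listed elsewhere counts as lacking it. A C at the annotated first base with at least 4 pyrimidines behind it is the form of the terminal oligopyrimidine tract. In the RefSeq promoter table (GRCm38.p6), which held 63 of the 83 genes, 13 of the 56 that are not paralogs had this run at the start (23.2%), compared with 3.01% of all 27025 genes. With a start up to 5 bases away on either side, 26 of the 56 had it (46.4%), compared with 21.2% of all genes. None of the 7 paralogs and none of 69 mitochondrial ribosomal protein genes had it at the annotated base. Within 5 bases of it, 2 of the 7 paralogs (28.6%) and 17 of the 69 mitochondrial genes (24.6%) did. The windows below run from 15 bases before to 15 bases after the start, in the direction of transcription, with the run in capitals. They show the longest runs, Rps6, whose protein is the classic substrate of the S6 kinases, a pair of small subunit genes described further on, and Rpl3l, which has no such run.
Rpl15, chr14:18270972-18271001, minus strand: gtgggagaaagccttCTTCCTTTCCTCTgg
Rpl35, chr2:39005117-39005146, minus strand: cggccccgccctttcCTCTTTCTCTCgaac
Rps6, chr4:86857353-86857382, minus strand: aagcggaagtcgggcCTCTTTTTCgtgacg
Rps21, chr2:180257364-180257393, plus strand: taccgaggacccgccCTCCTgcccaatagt
Rps27, chr3:90213634-90213663, minus strand: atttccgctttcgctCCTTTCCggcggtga
Rpl3l, chr17:24727811-24727840, plus strand: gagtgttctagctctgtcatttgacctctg

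The members with and without the feature in this search had similar changes, within the limit that annotated starts set. The median log2 change of the 26 genes with a run at or near the start was -0.037 at 2 weeks and -0.021 at 8 weeks, and that of the 30 without one was -0.010 and -0.0019. Rpl15 changed by -0.041 and -0.021, Rpl35 by 0.054 and -0.0092, and Rps6 by -0.052 and -0.022. The members lie on 18 chromosomes.

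Rpl3l was lower in both TAC hearts. Its relative signal was 48.0 in sham and 33.0 in TAC at 2 weeks, and 45.6 in sham and 31.5 in TAC at 8 weeks. Both sham arrays lay above both TAC arrays. The log2 change was -0.54 at 2 weeks and -0.53 at 8 weeks, which is 1.45-fold lower at either time, and the sham hearts at 8 and 2 weeks differed by -0.074. The next lowest members were Rpl21 at 2 weeks (-0.27) and Rps2 at 8 weeks (-0.23). Of the 14245 genes measured on all 4 arrays, 193 (1.35%) were lower by at least as much at both times.

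Rpl3, the protein of the large subunit that Rpl3l replaces and that reaches toward the peptidyl transferase center, went the other way. Its relative signal was 50.1 in sham and 60.5 in TAC at 2 weeks, and 49.0 in sham and 65.9 in TAC at 8 weeks. Both TAC arrays lay above both sham arrays. The log2 change was 0.27 at 2 weeks (1.21-fold), below the 1.3-fold line, and 0.43 at 8 weeks (1.34-fold). Of the genes measured on all 4 arrays, 836 (5.87%) were higher by at least as much as Rpl3 at both times. The sham hearts at 8 and 2 weeks differed by -0.032.

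**Figure D2:**
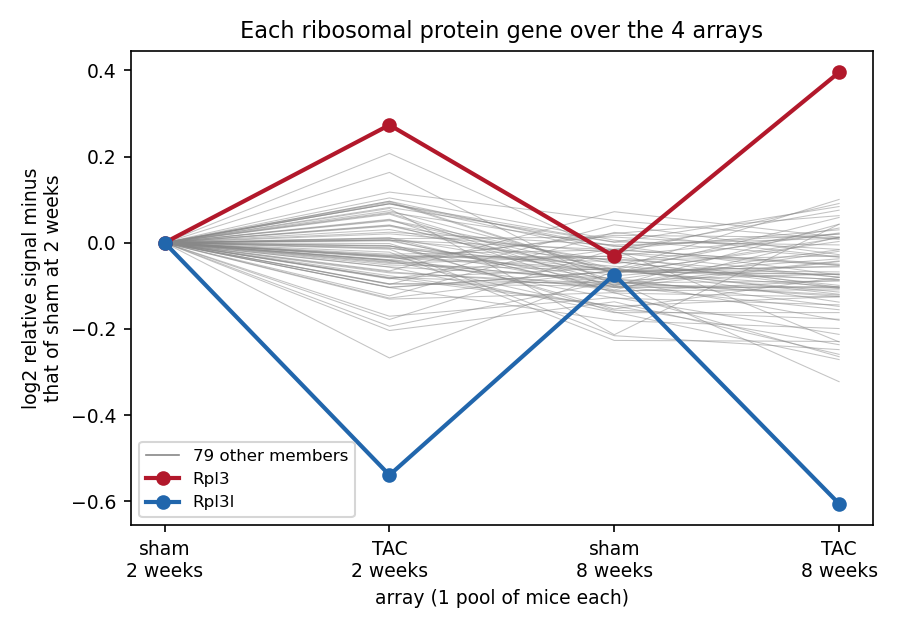
Log2 relative signal on each of the 4 arrays, minus that in sham at 2 weeks, for Rpl3, Rpl3l and the 79 other ribosomal protein genes measured on all arrays, with 1 line per gene. Rpl3l drops on both TAC arrays and returns close to its first value in sham at 8 weeks, and Rpl3 does the opposite.

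The ratio of Rpl3 to Rpl3l within an array is free of any factor by which arrays are scaled. It was 1.76 times as high in TAC as in sham at 2 weeks (0.81 on the log2 scale) and 1.94 times at 8 weeks (0.96), while the sham hearts differed by 0.042. Over the scalings and the background correction tried it ranged from 0.80 to 0.81 at 2 weeks and from 0.93 to 0.99 at 8 weeks. A single probe carries each of the genes, and no second probe of either is on the array. A higher ratio shows an unequal change of the signals and does not say which protein the ribosomes carried.

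The 250 bases before the first listed start of Rpl3l (chr17:24727576-24727825, GRCm38.p6, plus strand) are shown because this gene set itself apart from the other members. Capitals mark the E-boxes (CANNTG, the site of the myogenic and other helix-loop-helix factors) and a GATA-type site (AGATAA, here on the opposite strand).
Rpl3l: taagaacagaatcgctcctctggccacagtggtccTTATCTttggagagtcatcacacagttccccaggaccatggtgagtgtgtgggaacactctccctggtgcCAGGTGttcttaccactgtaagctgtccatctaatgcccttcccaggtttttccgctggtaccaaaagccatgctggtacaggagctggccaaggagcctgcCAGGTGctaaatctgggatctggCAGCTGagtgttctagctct
Both strands were searched. The window held 3 E-boxes, a motif that 69.3% of all genes have in the same window and that 29 of the 63 members have (46.0%). The E-box nearest to the start is CAGCTG, which 14.7% of all genes and 4 of the 63 members have. AGATAA is present in 11.4% of all genes and in 4 members. The TATA box TATAAA, the M-CAT motif CATTCC and TATTTA, the core of MEF2 sites, were not in this window. The table lists a further start of Rpl3l, and Rpl3 was not in the table.

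Among the other paralogs, none that was well measured passed 1.3-fold. Rps27l, the paralog of Rps27 and a known target of Trp53, went from 49.4 in sham to 57.0 in TAC at 2 weeks and from 48.5 to 52.6 at 8 weeks. Its log2 change was 0.21 and 0.12, whereas that of Rps27 was -0.077 and -0.090. Rpl22l1, whose level in other tissues is known to be held down by Rpl22, went from a relative signal of 32.9 to 28.6 at 2 weeks and from 29.9 to 27.5 at 8 weeks, with changes of -0.20 and -0.12. Its partner Rpl22 changed by 0.090 and -0.0068. The TAC array lay above its sham array for Rps27l at both times and below it for Rpl22l1, except that Rpl22l1 was 0.046 higher at 8 weeks without scaling between arrays. The sham hearts at 8 and 2 weeks differed by -0.14 for Rpl22l1, more than its change of -0.12 at 8 weeks, and by -0.025 for Rps27l. Rpl36al and its partner Rpl36a changed by 0.10 and 0.096 at 2 weeks and by -0.039 and 0.092 at 8 weeks. Rpl7l1 changed by -0.044 and 0.041, and Rpl7 by 0.024 and 0.016.

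**Figure D3:**
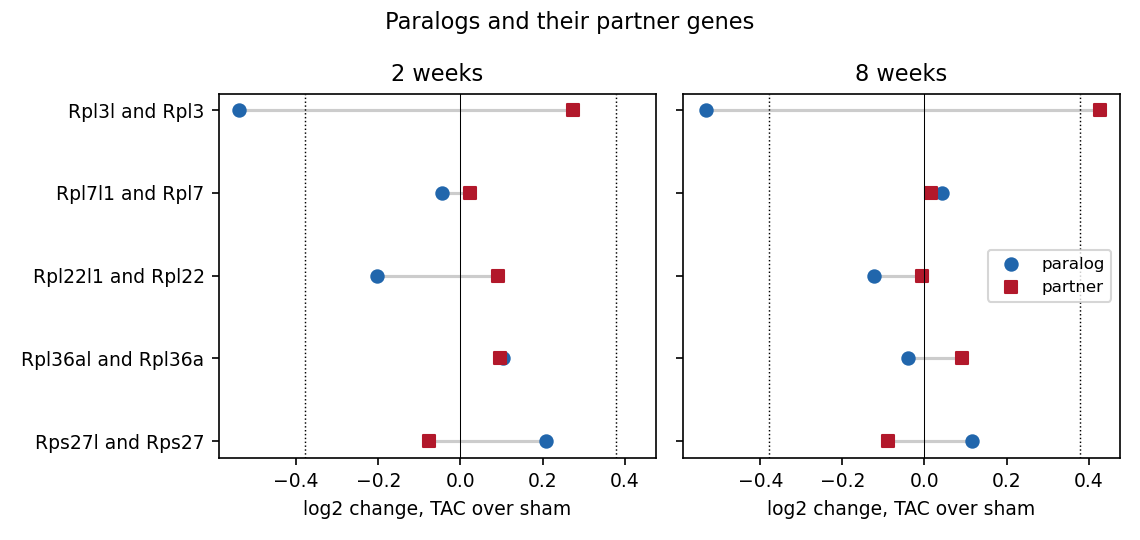
Log2 change of TAC over sham at 2 weeks (left) and 8 weeks (right) for the 5 paralogs measured on all 4 arrays (circles) and their partner genes (squares), with dotted lines at 1.3-fold. The gap between Rpl3l and Rpl3, 0.81 and 0.96, is wider than that of each other pair.

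Rpl10l and Rpl39l, the paralogs of Rpl10 and Rpl39 that are known from the testis, were at the edge of detection. Rpl10l was well above background on both TAC arrays and on neither sham array. Its TAC signal was 1.05 times the dimmest signal that counts as well above background on the sham array at 2 weeks. At 8 weeks it was 1.002 times that limit. The second probe of Rpl10l, well above background on no array, gave -0.34 and -0.22. Rpl39l was well above background in TAC at 2 weeks only, at 1.37 times the limit of the sham array, and on neither array at 8 weeks. Spots of a probe this dim differ with an SD of 0.70 on the log2 scale, so these ratios are not lower bounds of a change. Their partners Rpl10, a protein that joins the large subunit late in its assembly, and Rpl39, which lines the exit tunnel, changed by 0.053 and 0.16 at 2 weeks and by 0.072 and 0.14 at 8 weeks.

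The large subunit genes that are not paralogs had a median log2 change of -0.028 at 2 weeks and -0.0069 at 8 weeks (46 genes). Rpl39 was among the 5 highest members at both times, with 92.6 in sham and 104 in TAC at 2 weeks, then 86.4 and 95.4. Rpl29 changed by 0.096 and 0.13 by its brightest probe, while its other probes gave -0.016 and 0.018, and -0.023 and -0.047. Rpl18 changed by -0.18 at 2 weeks and by -0.037 at 8 weeks. Rpl21 was the member with the lowest change of these 46 at 2 weeks, but both of its probes were dim, with relative signals of 0.25 to 0.44, and the second gave -0.11 at 2 weeks and 0.30 at 8 weeks against -0.27 and -0.0069 for the brighter one. At such signals the spots of a probe differ with an SD of 0.18.

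The stalk proteins Rplp0, Rplp1 and Rplp2, which recruit the elongation factors to the large subunit, changed by 0.0059, -0.035 and -0.097 at 2 weeks. At 8 weeks they changed by -0.21, 0.0085 and -0.069. Rplp0, often used as a reference gene, had relative signals of 510 in sham and 512 in TAC at 2 weeks, then 504 and 435. The TAC array at 8 weeks was the low one. Its 3 probes gave -0.21, -0.15 and -0.030 at 8 weeks.

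The small subunit genes that are not paralogs had a median of -0.012 at 2 weeks and -0.0060 at 8 weeks (30 genes). Rps2, which lines the mRNA entry channel, was the only one of these with a change below -0.15 at 2 weeks, and its relative signal was 245 in sham and 214 in TAC, then 230 and 196 at 8 weeks. Its log2 changes were -0.19 and -0.23, and its second probe gave -0.15 and -0.13. Both TAC arrays lay below both sham arrays for Rps2. Rps21 changed by -0.13 and -0.15. Rps12 had relative signals of 296 in sham and 312 in TAC at 2 weeks, then 255 and 305, where sham was the low array. Its change at 8 weeks was 0.26 by this probe and 0.097 by the other. Rps27a, which is made as a fusion with ubiquitin, changed by 0.074 and 0.16, and Rps14 by 0.12 and -0.044.

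Across the 81 genes the changes at 2 and 8 weeks had a Pearson r of 0.73 and a Spearman rho of 0.53, and 58 of 81 had the same sign. Without Rpl3 and Rpl3l the r was 0.53 and the rho 0.49 over 79 genes. These are descriptions across genes, since the points share arrays and probes, a property of a probe that responds to an array enters both changes, and genes are not replicates.

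Several probes of a gene moved alike in most cases. For the 53 genes with more than 1 probe measured on all 4 arrays, the median gap between the highest and the lowest probe was 0.082 at 2 weeks and 0.089 at 8 weeks. No gene had probes past 1.3-fold in opposite directions. Ribosomal protein genes have many processed pseudogenes with near-identical sequence, and a probe cannot tell their transcripts apart.

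Between the sham hearts the members were slightly lower at 8 weeks than at 2 weeks. The median log2 difference was -0.067, compared with 0.027 for all genes and -0.023 for the genes of like signal. Below 0 were 71 of 81 members, beside 43.2% of all genes and 59.9% of the genes of like signal. Without scaling the median of the members was 0.033, against 0.13 for all genes. No member passed 1.3-fold in this comparison, beside 7.07% of all genes higher and 4.79% lower, and 0.104% and 1.45% of genes of like signal. The highest member was Rpl23a (0.072) and the lowest Rps29 (-0.23), followed by Rpl34 (-0.22) and Rps12 (-0.21). Time after surgery and age went together in these groups.

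Other genes of the translation machinery were described by lists. Fau, which encodes a further ribosomal protein as a ubiquitin-type fusion, changed by -0.13 at 2 weeks and by -0.16 at 8 weeks, and Rack1, a scaffold on the small subunit, by 0.017 and 0.081. The ribosome biogenesis list, of factors that process ribosomal RNA and assemble the subunits, had medians of 0.024 and 0.17. At 8 weeks 32 of its 41 measured genes were above 0, compared with 48.5% of all genes, and 4 were over 1.3-fold higher and none lower, a share below the 12.9% of all genes that were higher. These were Rrp12 (0.48 at 2 weeks and 0.81 at 8 weeks), Nhp2 (0.095 and 0.45), Nop14 (-0.33 and 0.39) and Ddx21 (0.23 and 0.39). The list lay 0.18 above the median of all genes at 8 weeks, a distance that scaling an array by a factor cannot alter. Quantile normalization, which can, gave 0.15, and normexp background correction gave 0.17. The RNA polymerase I list had a median of -0.020 and -0.0021, with 1 of 12 genes over 1.3-fold higher at each time (Taf1b, a dim probe, at 2 weeks and Polr1d at 8 weeks).

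The initiation factors had a median of -0.012 and 0.048, and 1 of 34 passed 1.3-fold, Eif5b at 2 weeks (-0.44), whose relative signal was 0.057 to 0.079. The elongation factors had a median of 0.0070 and 0.014, and none of 10 passed. Eef1a1, the form found in most cells, changed by 0.24 and 0.36, and Eef1a2, the form of muscle and neurons, by -0.25 and -0.076, and this pair was chosen after its values were seen. The aminoacyl tRNA synthetases had a median of 0.065 and 0.14, with 1 of 19 over 1.3-fold higher at 2 weeks (Vars) and 2 higher and 1 lower at 8 weeks (Cars and Nars, and Yars). Among 17 regulators of ribosomal protein genes and mRNAs, Myc changed by 0.89 and 1.04, Max by -0.32 and -0.39 and Tia1 by -0.15 and 0.41, and no other passed 1.3-fold. The probes of Myc, Tia1, Taf1b, Eif5b and Yars were all under 0.25 times the 75th percentile, where the changes from single spots of a probe differed with an SD of 0.70, so these values are poorly measured. The shares of genes past 1.3-fold in the polymerase, initiation, elongation, synthetase and regulator lists lay near or below those of all genes at the same time (13.1% and 7.15%, then 12.9% and 11.2%). The medians of the regulator list were -0.039 and 0.045, with Mtor at 0.062 and 0.13 and Larp1, which binds pyrimidine-run mRNAs, at -0.048 and 0.097.

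The proteins of the mitochondrial ribosome, which have genes of their own, had a median of -0.10 at 2 weeks and of -0.051 at 8 weeks. Below 0 were 66 of 78 genes (84.6%) at 2 weeks and 54 (69.2%) at 8 weeks. The shares below 0 were 49.9% and 51.5% for all genes, and 70.1% and 62.3% for the 966 genes set beside the members. Without scaling the median of the list was 0.12 at 8 weeks, where the median of all genes was 0.16. None passed 1.3-fold at either time. The distance of the list from the median of all genes was -0.10 at 2 weeks and -0.042 at 8 weeks. Scaling an array by a factor cannot alter it. With quantile normalization the distance was -0.083 and -0.067, and with normexp -0.10 and 0.0043.

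**Figure D4:**
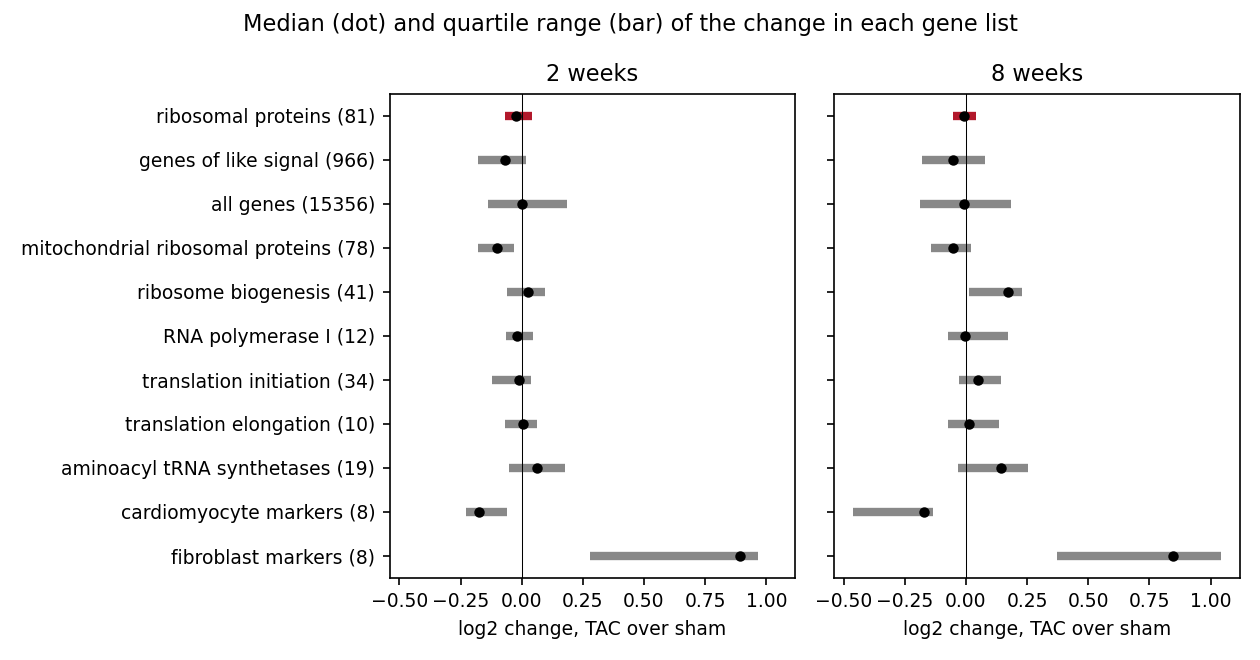
Median (dot) and range from lower to upper quartile (bar) of the log2 change of TAC over sham in each gene list at 2 weeks (left) and 8 weeks (right), with the number of genes measured at 2 weeks in parentheses. The bar of the ribosomal proteins is short and lies across 0 at both times, the biogenesis list lies to the right of 0 at 8 weeks, and the mitochondrial ribosomal proteins lie to the left at 2 weeks.

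Markers of several cell types differed between the TAC and sham hearts. Fewer cells of a type and less RNA per cell cannot be told apart in these pools. The summed relative signal of 8 cardiomyocyte markers was 8344 in sham and 7819 in TAC at 2 weeks, then 7939 and 7048. Their median log2 change was -0.17 at both times, 1 of 8 (Pln, -0.42) was over 1.3-fold lower at 2 weeks, and 3 of 8 were at 8 weeks (Ryr2, -0.63, Pln, -0.49, and Tnni3, -0.46). Rpl3l, with -0.54, lay below all 8 of them at 2 weeks, and at 8 weeks, with -0.53, below all but Ryr2. The summed signal of 8 fibroblast markers was 208 in sham and 287 in TAC at 2 weeks, then 232 and 339, with 5 and 6 of 8 over 1.3-fold higher, among them Postn (2.29 and 2.92) and Col1a2 (0.90 and 0.99), and Tcf21 lower at 8 weeks (-0.55). The summed signal of 6 macrophage markers was higher by 1.25-fold and 1.26-fold at the 2 times, with 4 and 3 of 6 over 1.3-fold higher. The sums over endothelial, smooth muscle, lymphocyte and erythroid markers were between 0.82-fold and 1.14-fold at both times, but these sums rest on the brightest probes. Gene by gene, 4 of 7 lymphocyte markers were over 1.3-fold higher at 2 weeks and 1 of 7 at 8 weeks, all of them dim probes. Among the endothelial markers 5 of 6 were above 0 at 2 weeks and none passed 1.3-fold at either time. Of 5 smooth muscle and pericyte markers, Pdgfrb was higher at 2 weeks (0.50) and Acta2 lower at 8 weeks (-0.40). No defining marker of cardiomyocytes or fibroblasts was at background. The part of these shifts in the changes of Rpl3 and Rpl3l was not tested.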

How the data were processed

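Total RNA of 4 pools of mouse hearts was hybridized to Agilent SurePrint G3 mouse arrays with Cy3 as the only dye. The probes are annotated on mm9. The authors deposited the scanner output, whose processed signal gives the intensity of a spot after background correction, with no scaling between arrays. The file headers name Feature Extraction 10.7.3.1, whereas the submitters' processing notes name version 9.1. A further deposited table, used as an alternative, gives the intensity on a linear scale after each array was multiplied by its own constant. The paper names GeneSpring GX11, and the normalization is not given in the sources used here.

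Log2 signals were reduced by the 75th percentile of the array over non-control probes. Outlier spots were left out, and spots of a probe were averaged. Probes were named through RefSeq and Ensembl accessions (170 and 5 of the 175 member probes), 5 pseudogenes were left out, and the probe with the highest mean signal stood for a gene. A gene was tested in a comparison where it was well above background on either array, and counted as higher or lower past 1.3-fold if so on the brighter one. The genes named were the paralogs and their partners, the 5 members with the largest rise and fall at each time, members past 1.3-fold at both times or not above background on some array. Rpl23a, Rpl34, Rps29 and the genes beside the start sites were named after their values were seen. The members and lists were chosen with earlier results of these data known. Promoter sequences are from RefSeq. The counting was tested on simulated data. With 1 array per group no test was run, and the number of arrays limits the precision. Alternatives were other scalings, normexp with an offset of 50, the deposited table, other probe rules, filters and thresholds. Python 3.11.15, pandas 2.3.3, numpy 2.4.6 and limma 3.58.1 were used.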

Additional observations from a re-analysis of the deposited data

How the results depend on the processing

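No paired analysis was possible because each group had 1 array, and for the same reason no replicate could be left out. The alternatives were applied to the member counts, medians and named members, and of these the scalings and the background correction also to the medians of the other lists, and the limit for calling a value moved was the SD between spots of bright probes, 0.048. Without scaling, the median of all genes was 0.16 at 8 weeks and 0.13 between the sham hearts, so the member medians there are given beside it. The member median at 8 weeks was 0.16 without scaling (0.0021 above all genes), 0.080 with scaling to the median and 0.043 with normexp. Without scaling 79 of 82 members and 11265 of 15420 genes were above 0 at 8 weeks. With scaling to the median these were 74 and 9623, compared with 35 and 7486 in the main setting. The other scalings and the background correction gave from 26 members (deposited table) to 59 (normexp). At 2 weeks it was 0.054 with quantile normalization. Between the sham hearts it was 0.033 without scaling and -0.015 with quantile normalization. The median difference between the changes at 8 and 2 weeks, 0.016, was 0.14 and 0.19 with the median as scale and without scaling. The number of members over 1.3-fold higher at 2 weeks was 0 with quantile normalization, normexp, the mean over probes, all arrays above background or no paralogs, and 2 with each probe on its own. At 8 weeks the number higher was 1 with normexp, the mean over probes, all arrays above background or no paralogs, and the number lower was 0 without scaling. Without the paralogs no member was over 1.3-fold lower at either time. A 1.2-fold threshold gave 2 higher and 2 lower at 2 weeks, beside 19% and 12.4% of all genes. A 1.5-fold threshold gave 0 and 0 at 2 weeks (6.79% and 3.36% of all genes) and 1 and 0 at 8 weeks (7.28% and 5.63%). A 2-fold threshold gave 0 throughout, beside 2.45% and 1.22% of all genes at 2 weeks and 3.31% and 2.07% at 8 weeks. Rpl10l (-0.080) and Rpl39l (-0.0060) changed direction at 8 weeks with normexp. Rpl3l stayed lower and Rpl3 higher at both times under every scaling and background correction, from -0.36 to -0.58 and from 0.23 to 0.59. Of the values for single members under an alternative, 271 stayed within the SD between spots, 91 moved and 2 changed direction. The cause of these moves was not tested. With 1 pool per condition the spread between hearts is unknown, and the signal over background limits the dim probes of Rpl10l, Rpl39l, Rpl21 and Rpl7l1.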
